A study of Homo sapiens with 24 samples.

Results

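The small MAF proteins MAFF, MAFG and MAFK and the BACH proteins BACH1 and BACH2 are leucine zipper transcription factors, and their 5 genes were followed across all libraries of a study of the hormone FGF23. The members were taken by gene name, which matched 5 of the 34305 genes listed in the 4 deposited tables. Kl denotes HEK293, a human embryonic kidney line, carrying a stable Klotho transfection, and WT denotes the HEK293 line without it. Bone releases FGF23, and in the kidney its FGF receptors need Klotho (KL) beside them in the membrane. Both lines were given recombinant human FGF23, either 0.5 nM over 1 h or 10 nM over 24 h, and each time had its own untreated cells of each line, labelled Ctrl. Each of the 8 groups had 3 libraries, which makes 24. Because the later time also had the higher dose, time and dose cannot be told apart between the 1 h and 24 h comparisons. Whether the Kl line is 1 clone, which promoter drives the transfected gene and whether replicates were grown separately are not in the labels, so p-values cover the spread between these libraries, which may be technical.

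Small MAF proteins carry a DNA-binding leucine zipper but no activation domain of their own. As pairs of one another they occupy MAF recognition elements and repress, and with a partner such as NRF2 (NFE2L2) they bind the related antioxidant response element and activate genes of glutathione, iron and heme metabolism. BACH1 and BACH2 also need a small MAF partner, and with it they repress from the same elements. BACH1 is released from DNA when it binds heme, and in many cell types including kidney cells it holds down the heme oxygenase gene HMOX1. BACH2 is best known from B and T lymphocytes. Activating and repressing dimers thus draw on the same small MAF proteins, so these genes are described together.

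Total counts per library ran from 15849564 to 30446989, and all 5 members passed the filter on low counts in the fit to 17790 genes. The KL transcript stood at 1931 ± 209 CPM (read counts divided by TMM-corrected library size) in Kl cells given FGF23 for 1 h and 1203 ± 28.3 CPM in their controls, and at 24 h at 1862 ± 55.3 CPM with FGF23 and 1008 ± 6.83 CPM in controls (SD, n = 3 each). KL ran from 0 to 14 counts in the WT libraries. Kidney epithelial identity was partial, since 5 of 8 markers (KRT8, KRT18, EPCAM, CDH1 and PAX2) averaged above 1 CPM while PAX8, CDH16 and CDH6 had 0 to 9 counts. These 8 markers summed to 507 to 684 CPM in Kl libraries and 764 to 984 CPM in WT libraries, and whether that difference bears on the results was not tested. Endothelial markers summed to at most 0.503 CPM in any library, and above 1 CPM were LRP2 alone of 4 proximal tubule markers, CD14 alone of 4 blood markers, and COL1A1 and PDGFRA of 3 fibroblast markers. Kl cells given FGF23 for 1 h had the most scattered libraries of the 8 groups, with a median SD of log2 CPM of 0.224 over genes, against 0.0838 to 0.122 in the other 7 groups. Effects of the members at 1 h in Kl cells are therefore also given for fits that do not share 1 spread over all groups. EGR1, an immediate-early gene of the ERK pathway that served as a check of the treatment, stood at 818 ± 234 CPM in Kl cells after FGF23 for 1 h and at 4.96 ± 0.863 CPM in their controls. In WT cells EGR1 was not called at either time.

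The genes lie on separate chromosomes (GRCh38, coordinates as deposited). MAFF (ENSG00000185022) occupies chromosome 22 from 38200767 to 38216511 on the plus strand, MAFG (ENSG00000197063) chromosome 17 from 81918270 to 81927714 on the minus strand, and MAFK (ENSG00000198517) chromosome 7 from 1530714 to 1543043 on the plus strand. BACH1 (ENSG00000156273) spans chromosome 21 from 29194071 to 29630751 on the plus strand and BACH2 (ENSG00000112182) chromosome 6 from 89926529 to 90296908 on the minus strand. The strand setting of the authors' counting is not stated, so reads of overlapping genes on opposite strands may not have been told apart. PLA2G6, on the other strand from MAFF, had 281 to 585 counts, and it was not called in Kl cells at 1 h (log2 fold change 0.049, SE 0.09, edgeR adjusted p = 0.814) or at 24 h (-0.10, SE 0.09, adjusted p = 0.600). MAFG overlaps SIRT7, which had 682 to 1490 counts, on its own strand, where no strand setting can tell shared reads apart. MAFG-DT starts 115 bases from the MAFG start on the opposite strand and had 61 to 177 counts. Neither SIRT7 nor MAFG-DT was called in Kl cells at 1 h or 24 h, with adjusted p from 0.258 to 0.727 in edgeR. TMEM184A overlaps MAFK with 34 to 83 counts and was not called either (adjusted p = 0.997 at 1 h and 0.334 at 24 h).

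The promoter windows of 3 genes are shown because these genes rose in Kl cells, MAFF and MAFG at both times and BACH2 at 24 h. They come from RefSeq on GRCh38.p14, run from 250 bases before to 50 bases after an annotated start, and read 5' to 3' in the direction of the gene. Capitals mark each match to the core TGACG of the cyclic AMP response element, in full where the whole element TGACGTCA is present, and each E-box CACGTG. The MAFF window is chr22:38201744-38202043 on the plus strand, the MAFG window is chr17:81927686-81927985 on the minus strand and the BACH2 window is chr6:90296794-90297093 on the minus strand.
MAFF: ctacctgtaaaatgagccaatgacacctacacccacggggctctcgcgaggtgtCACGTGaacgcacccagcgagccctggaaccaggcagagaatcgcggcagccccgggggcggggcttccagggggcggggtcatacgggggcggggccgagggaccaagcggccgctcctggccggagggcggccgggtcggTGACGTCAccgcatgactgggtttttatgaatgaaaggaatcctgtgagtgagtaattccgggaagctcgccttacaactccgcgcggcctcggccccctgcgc
MAFG: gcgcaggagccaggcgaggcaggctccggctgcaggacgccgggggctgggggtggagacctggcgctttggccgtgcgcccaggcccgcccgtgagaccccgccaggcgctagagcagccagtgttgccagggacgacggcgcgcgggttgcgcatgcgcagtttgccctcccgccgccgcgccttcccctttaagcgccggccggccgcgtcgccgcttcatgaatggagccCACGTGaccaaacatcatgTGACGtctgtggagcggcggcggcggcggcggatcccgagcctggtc
BACH2: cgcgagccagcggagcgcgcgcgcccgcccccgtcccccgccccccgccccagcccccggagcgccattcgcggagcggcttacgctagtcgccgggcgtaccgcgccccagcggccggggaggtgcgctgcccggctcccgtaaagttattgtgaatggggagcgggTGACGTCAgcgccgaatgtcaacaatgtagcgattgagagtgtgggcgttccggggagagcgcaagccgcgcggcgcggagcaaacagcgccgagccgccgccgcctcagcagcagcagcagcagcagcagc

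The MAFF window held the whole cyclic AMP response element at -54 from the start, and BACH2 held it at -82. That element stood in 1.85% of the 35116 human promoter windows of the same table, searched on both strands. The MAFG window held the core TGACG, which 24.6% of windows have, 4 bases after the start and on the strand printed. An E-box stood at -196 in the MAFF window and at -16 in the MAFG window, against 7.26% of all windows. MAFF also had a match to the antioxidant response element pattern TGACNNNGC on the opposite strand at -122, a pattern found in 13.3% of windows. An ETS core CCGGAA, found in 17.2% of windows, stood on the opposite strand at 3 bases past the start of MAFF and at -34 in BACH2. BACH1 also had this core, at -238 on the opposite strand in its first window and at -213 in its second. A MAF site TGCTGA, found in 17.3% of windows, stood on the opposite strand 25 bases past the BACH2 start. The second BACH1 window had it at -28, also on the opposite strand. The second MAFF window held an E-box at -81 and no match to the other patterns. Of the 3 BACH1 windows the first had an AP-1 site of the pattern TGANTCA at -48, which 7.71% of windows have. The CArG box of serum response factor, in 1.29% of windows, matched in none of the 7 windows of the 4 matched members. EGR sites GCGNGGGCG, in 9.43% of windows, matched in the second BACH1 window alone. These matches overlap where the core lies inside the whole element, and they describe letters and not binding. No MAFK window was matched.

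FGF23 at 1 h raised the small MAF transcripts in Kl cells and neither BACH transcript was called. MAFF rose most, followed by MAFK and MAFG. That made 3 of 5 members higher and none lower, where 3.9% of the 17790 genes tested were called higher and 4.83% were called in either direction. The median log2 fold change of the 5 members was 0.47, against -0.01 over all genes tested. The members were chosen with earlier results of these data known, so this share and median do not test the set. Treated and control ranges did not overlap for those 3 members, as for 13.7% of all genes. With voom all 3 kept their calls, and with the libraries of the comparison alone only MAFF did. FGF23 in WT cells gave no call for any member, and 0.0% of all genes were called there. In bulk RNA a change of level per cell and a change in the share of cells that express a gene cannot be told apart.

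MAFF is a small MAF protein described in human uterus as binding the oxytocin receptor gene. Its transcript had 410, 461 and 701 counts in Kl cells given FGF23 for 1 h, and 33, 31 and 21 counts in Kl controls. As CPM these were 25.8, 15.8 and 28.1 in the treated libraries and 2.05, 1.73 and 1.23 in the controls. Treated libraries lay far above every control library, and the lowest of them was replicate 2. The log2 fold change was 3.79 (SE 0.21, 95% interval 3.37 to 4.21), a factor of 13.8, with an edgeR adjusted p of 3.33e-14. In WT cells MAFF had 2.61, 2.29 and 2.27 CPM with FGF23 and 2.39, 2.05 and 2.03 CPM without, and these ranges overlap. There FGF23 gave 0.13 on the log2 scale (SE 0.23, adjusted p = 1.00). The difference between the lines, Kl minus WT, was 3.66 on the log2 scale (SE 0.32, edgeR adjusted p = 3.04e-09), where 0.736% of all genes were called and 0.708% called higher. With the 12 libraries of both lines at 1 h alone (adjusted p = 1.13e-05) and with voom (2.54e-09) that difference was also called. MAFF kept its call in Kl cells when only the 6 libraries of the comparison were fitted (3.80, adjusted p = 6.46e-06) and with voom and a separate spread for each group (3.72, adjusted p = 1.44e-13).

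MAFK pairs with partners such as NRF2. Its transcript had 64.2, 37.7 and 45.0 CPM in Kl cells after FGF23 for 1 h and 32.7, 27.3 and 32.2 CPM in Kl controls. All 3 treated libraries lay above all controls, with replicate 1 well above the other treated ones. FGF23 raised MAFK by a log2 fold change of 0.66 (SE 0.13, edgeR adjusted p = 0.00209), a factor of 1.58. Fitted on the 6 libraries alone, where 0.554% of genes were called, it was not called (0.67, adjusted p = 0.199), and with voom, where 1.29% were, it stood at 0.60 (adjusted p = 0.0286). Without treated replicate 1 the MAFK change was 0.43 and still called (adjusted p = 0.00395), and over the 6 fits without 1 library it ran from 0.43 to 0.83. In WT cells the values were 33.4, 35.0 and 36.3 CPM with FGF23 and 34.2, 35.6 and 32.6 CPM without. The difference between lines was 0.63 (SE 0.18, edgeR adjusted p = 0.143), which was not called, nor was it with the 12 libraries alone (adjusted p = 0.488) or with voom (0.240). It was called with DESeq2 (adjusted p = 0.0499), no filter (1.57e-04), the replicate block (0.0276) and without treated Kl replicate 2 (0.00412). Without treated Kl replicate 1 the difference was 0.40 (adjusted p = 0.128).

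MAFG, a widely expressed member of the group, had 88.9, 84.1 and 96.0 CPM in Kl cells after FGF23 for 1 h and 66.3, 64.7 and 63.8 CPM in Kl controls. The groups did not overlap. Its log2 fold change of 0.47 (SE 0.07, edgeR adjusted p = 1.55e-05) is a factor of 1.38. With voom the call held (0.46, adjusted p = 0.00286), and with the 6 libraries alone it was lost (0.47, adjusted p = 0.0950). WT cells had 79.5, 70.0 and 81.2 CPM with FGF23 and 75.3, 73.8 and 71.9 CPM without. The lines differed by 0.40 (SE 0.09, edgeR adjusted p = 0.0225). That last call was lost with library size scaling (0.36, adjusted p = 0.0668), with the libraries of the comparison alone (0.41, adjusted p = 0.268), with voom (0.41, adjusted p = 0.101), and in 5 of the 12 fits without 1 library. Those 5 left out WT control replicate 1 (adjusted p = 0.0747) or 2 (0.0596), treated WT replicate 2 (0.103), or Kl control replicate 2 (0.0714) or 3 (0.0630).

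BACH1, the heme-sensing repressor, had 53.7, 69.3 and 83.0 CPM in Kl cells after FGF23 for 1 h and 61.5, 62.7 and 58.5 CPM in Kl controls. The treated libraries spanned the control range, with replicate 1 below it. FGF23 over control was 0.18 on the log2 scale (SE 0.09, edgeR adjusted p = 0.288), and it was not called with the 6 libraries alone (adjusted p = 0.791) or with voom (0.833). Without treated replicate 1 it was 0.32 and was called (adjusted p = 0.00218), and without treated replicate 3 it was 0.036 (adjusted p = 0.840), so that single libraries decide this value. In the same treated libraries MAFK was highest in replicate 1 and BACH1 lowest. BACH2 had 23.0, 26.9 and 25.7 CPM in treated and 27.7, 24.8 and 23.0 CPM in control Kl cells. Its log2 fold change of 0.0076 (SE 0.08, 95% interval -0.16 to 0.18, adjusted p = 0.974) was not called, nor was it with the 6 libraries alone (0.993) or with voom (0.998), and with library size scaling the sign turned (-0.042). In WT cells BACH1 had 57.4, 54.2 and 49.3 CPM with FGF23 and 58.5, 56.5 and 57.3 CPM without, and BACH2 ran from 22.2 to 27.2 CPM with FGF23 and from 22.6 to 23.3 CPM without. For neither BACH gene was the difference between the lines called at 1 h (BACH1 0.28, adjusted p = 0.556, and BACH2 -0.095, adjusted p = 0.896). The BACH1 difference was 0.42 and called without treated Kl replicate 1 (adjusted p = 0.00748), and 0.14 without treated Kl replicate 3 (adjusted p = 0.701).

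**Figure D1:**
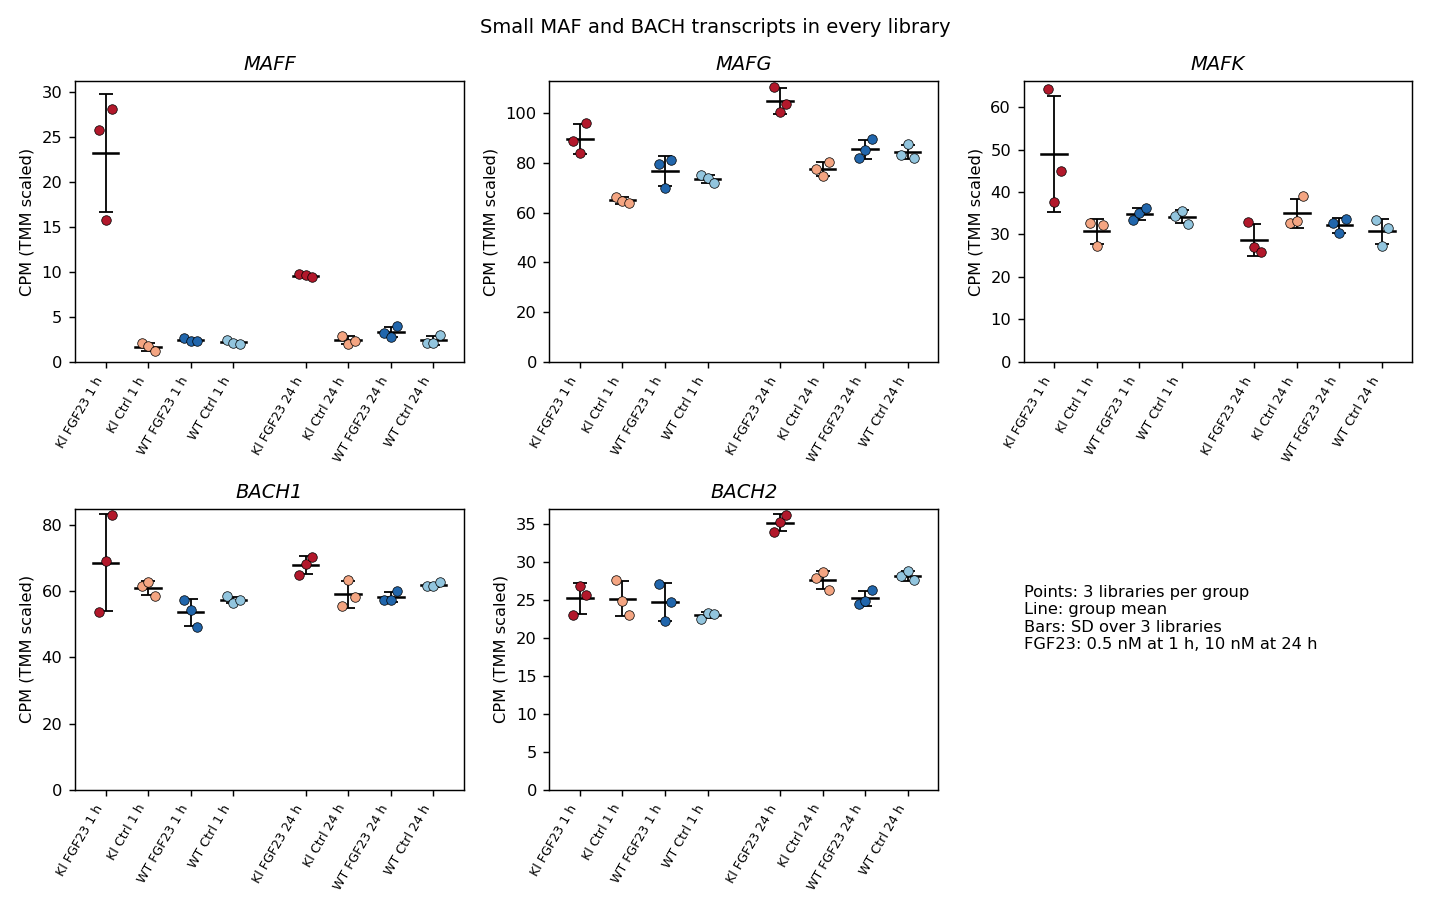
Each panel plots 1 gene as CPM (TMM scaled, linear axis from 0) in every library of the 8 groups, with the group mean as a line and the SD over 3 libraries as a bar. MAFF stands at 15.8 to 28.1 CPM in Kl cells after FGF23 for 1 h and at 9.40 to 9.78 CPM after 24 h, while its other 18 libraries lie between 1.23 and 3.97 CPM.

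After 24 h with 10 nM FGF23 the pattern among the members had changed. MAFF and MAFG were again higher in Kl cells, BACH2 was higher, and MAFK was no longer raised. Of the 5 members 3 were called higher and none lower, where 4.91% of all genes were called higher and 8.57% in either direction. The median log2 fold change of the members was 0.35, against -0.0037 over all genes tested. Here too the members had been chosen with earlier results known, so neither value tests the set.

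MAFF had 9.78, 9.60 and 9.40 CPM in Kl cells after 24 h of FGF23 and 2.89, 2.001 and 2.31 CPM in Kl controls. The treated libraries lay close together and far above the controls. That gave a log2 fold change of 1.99 (SE 0.20, edgeR adjusted p = 2.32e-08), a factor of 3.97. In WT cells MAFF had 3.23, 2.78 and 3.97 CPM with FGF23 and 2.10, 2.10 and 2.95 CPM without, with overlapping ranges. For WT cells the estimate of 0.49 (SE 0.22) had an unadjusted p of 0.0375 and an adjusted p of 1.00. Kl and WT cells differed in the MAFF effect by 1.50 (SE 0.31, edgeR adjusted p = 0.00281), where 3.78% of all genes were called and 2.46% called higher. Within Kl cells the effect at 24 h minus that at 1 h was -1.80 (SE 0.31, edgeR adjusted p = 3.69e-04), where 5.84% of genes were called and 3.24% called lower.

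MAFG had 111, 101 and 104 CPM in Kl cells after 24 h of FGF23 and 77.7, 74.8 and 80.3 CPM in Kl controls, again without overlap. Its log2 fold change was 0.43 (SE 0.06, edgeR adjusted p = 2.27e-05), a factor of 1.35. WT cells had 81.8, 85.1 and 89.5 CPM with FGF23 and 83.1, 87.6 and 82.2 CPM without. The lines differed by 0.42 (SE 0.09, edgeR adjusted p = 0.00637). Between 24 h and 1 h the MAFG effect in Kl cells differed by -0.032, with a 95% interval from -0.22 to 0.16.

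MAFK had 33.0, 27.0 and 26.0 CPM in Kl cells after 24 h of FGF23 and 32.7, 33.3 and 39.0 CPM in Kl controls. Treated replicates 2 and 3 lay below all controls, while replicate 1 lay inside their range. This difference of -0.29 (log2, SE 0.13) was not called in edgeR over all libraries (adjusted p = 0.189). It was called with the 6 libraries alone (-0.29, adjusted p = 0.0206), where 19.3% of genes were called, and with voom (-0.30, adjusted p = 0.0197), where 17.9% were. The authors' deposited table gives it a log2 fold change of -0.29 and an adjusted p of 0.0380. The difference of the MAFK effect between the times was called, at -0.95 for 24 h minus 1 h (SE 0.18, edgeR adjusted p = 0.00215), and its adjusted p reached at most 0.0380 in the alternatives run. WT cells had 32.7, 30.3 and 33.7 CPM with FGF23 and 33.3, 27.4 and 31.5 CPM without. The lines differed by -0.36 in the MAFK effect at 24 h (SE 0.19, edgeR adjusted p = 0.341), which was called with the 12 libraries at 24 h alone (adjusted p = 0.0359) and with voom (0.0341).

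BACH2 had 34.0, 35.3 and 36.3 CPM in Kl cells after 24 h of FGF23 and 27.9, 28.8 and 26.4 CPM in Kl controls. All treated libraries lay above all controls, and the log2 fold change was 0.35 (SE 0.08, edgeR adjusted p = 0.00505), a factor of 1.27. In WT cells the order was the other way, with 24.5, 24.8 and 26.3 CPM after FGF23 and 28.1, 28.9 and 27.6 CPM without. These WT ranges did not overlap, as in 14.8% of all genes, but the log2 fold change of -0.16 (SE 0.08, edgeR adjusted p = 1.00) was not called. Kl minus WT the BACH2 effect differed by 0.51 (SE 0.12, edgeR adjusted p = 0.00838). The BACH2 effect in Kl cells was larger at 24 h than at 1 h by 0.34 (SE 0.12), which was not called (edgeR adjusted p = 0.0772) except with DESeq2 (adjusted p = 0.0488) and without Kl control replicate 3 (0.0472) or treated Kl replicate 2 (0.0307) of the 1 h libraries.

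BACH1 had 64.9, 68.4 and 70.3 CPM in Kl cells after 24 h of FGF23 and 55.5, 63.4 and 58.4 CPM in Kl controls. The ranges did not overlap, which held for 31.4% of all genes in that comparison. At 24 h its change of 0.20 (log2, SE 0.09, edgeR adjusted p = 0.196) was not called over all libraries, and was called with the 6 libraries alone (adjusted p = 0.0145) and with voom (adjusted p = 0.0141). The authors' deposited table lists 0.20 with an adjusted p of 0.0312. In WT cells BACH1 had 57.5, 57.3 and 60.1 CPM with FGF23 and 61.8, 61.5 and 62.7 CPM without, so its WT ranges were also separate and in the other direction (-0.088, SE 0.09, adjusted p = 1.00). The lines differed by 0.29 for BACH1 (SE 0.13, edgeR adjusted p = 0.261), which was called with the 12 libraries of both lines at 24 h alone (adjusted p = 0.00466) and with voom (0.0129).

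In WT cells 0 members were called at either time by edgeR, DESeq2 or voom. At an unadjusted p under 0.05 there were 0 of 5 members at 1 h and 1 of 5 at 24 h, MAFF. Among all 17790 genes edgeR called 0.0% at both times, with 404 at 1 h and 541 at 24 h at an unadjusted p under 0.05, while DESeq2 called 0 at each time and voom 0 at 1 h and 2 at 24 h. The widest 95% interval of a WT effect among the members was that of MAFF at 1 h, -0.34 to 0.61.

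**Figure D2:**
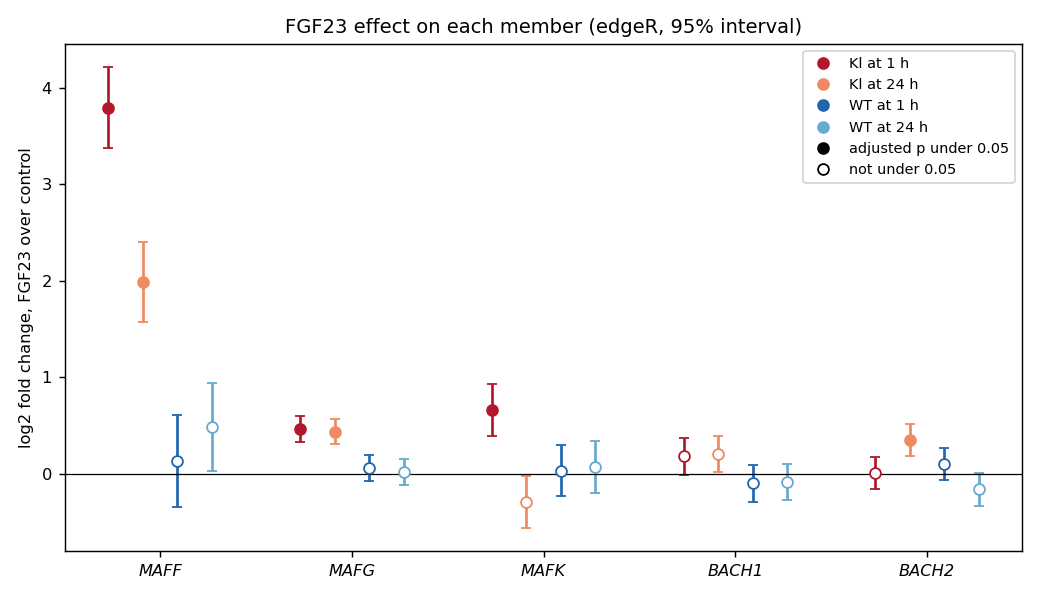
Log2 fold change of FGF23 over control for each member (linear axis), with 95% intervals from edgeR, for Kl cells at 1 h and 24 h and WT cells at 1 h and 24 h. Filled points have an adjusted p under 0.05. MAFF stands at 3.79 and 1.99 in Kl cells, MAFK at 0.66 at 1 h and -0.29 at 24 h, and every WT point is open.

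Between untreated Kl and WT cells 0 of 5 members were called at either time by edgeR (16.0% of all genes were called at 1 h and 23.5% at 24 h). Ranges did not overlap for MAFG (lower in Kl) and BACH1 (higher in Kl) at 1 h, as for 34.0% of all genes, and for MAFG at 24 h, as for 46.5%. At 1 h 1 of 5 members had an unadjusted p under 0.05, and at 24 h 0 of 5. It was MAFG, with 66.3, 64.7 and 63.8 CPM in Kl controls and 75.3, 73.8 and 71.9 CPM in WT controls at 1 h. Its log2 difference was -0.18 (SE 0.07, edgeR adjusted p = 0.0540), and it was called with DESeq2 (adjusted p = 0.0435) and with voom (adjusted p = 0.0300). MAFF had 1.67 ± 0.414 CPM in Kl controls and 2.15 ± 0.202 CPM in WT controls at 1 h (SD, n = 3 each), with a difference of -0.38 (95% interval -0.89 to 0.13).

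Levels were ordered by group for each gene. MAFF was highest in Kl cells after FGF23 for 1 h (23.2 ± 6.55 CPM, SD, n = 3), then after 24 h (9.59 ± 0.186 CPM), and these groups did not overlap with each other or with the next. The 6 remaining group means ran from 3.33 to 1.67 CPM, each overlapping its neighbour. MAFG was highest after 24 h of FGF23 in Kl cells (105 ± 5.15 CPM), then after 1 h (89.7 ± 5.98 CPM), and lowest in Kl controls at 1 h (64.9 ± 1.26 CPM). Its range in Kl cells after 1 h overlapped that of the next group, WT cells after 24 h of FGF23 (85.5 ± 3.86 CPM). MAFK had the greatest mean in Kl cells after FGF23 for 1 h (49.0 ± 13.7 CPM) and the smallest in Kl cells after FGF23 for 24 h (28.7 ± 3.79 CPM), and every group overlapped its neighbour in that order. BACH2 stood highest in Kl cells after FGF23 for 24 h (35.2 ± 1.14 CPM), apart from the next group, WT controls at 24 h (28.2 ± 0.638 CPM). BACH1 varied least, by a factor of 1.28 between its highest and lowest group, against 13.9 for MAFF.

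Per kilobase of gene length the genes can be set side by side. Averaged over the 8 groups MAFG had a level of 15.7 CPM per kb, BACH1 7.90, MAFK 7.72, BACH2 2.74 and MAFF 1.05 CPM per kb. The authors' deposited FPKM gave the same order, with MAFG at 15.7 and MAFF at 1.05 FPKM. MAFF was thus the scarcest small MAF transcript, also where it was induced, and its share of the family total was computed from these levels.

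In Kl cells after FGF23 for 1 h the level of the 3 small MAF transcripts together was 32.3 ± 4.43 CPM per kb, against 19.6 ± 0.788 CPM per kb in Kl controls (SD, n = 3 each). MAFF made up 12.8%, 10.3% and 14.96% of it in the treated libraries and 1.51 ± 0.354% in the controls. The MAFG share was 53.7 ± 5.87% with FGF23 and 63.4 ± 2.10% without, and the MAFK share 33.7 ± 5.47% with FGF23 and 35.1 ± 2.24% without. After 24 h the sum was 28.2 ± 1.82 CPM per kb with FGF23 and 23.1 ± 1.24 CPM per kb without. The MAFF share was then 6.06 ± 0.299% with FGF23 and 1.85 ± 0.359% without, the MAFG share 71.2 ± 1.37% with FGF23 and 64.3 ± 1.45% without, and the MAFK share 22.7 ± 1.58% with FGF23 and 33.8 ± 1.70% without. The MAFG share was thus lower with FGF23 at 1 h and higher at 24 h. The treated ranges did not overlap the control ranges, except for the MAFK share at 1 h (exact permutation p = 0.8, adjusted 0.830). In a two-sided exact permutation test each of the other differences had p = 0.1, the smallest that 3 against 3 libraries can give, and 0.215 after adjustment over the 28 measures and comparisons of this kind. In WT cells the MAFF share was 1.85 ± 0.165% with FGF23 and 1.73 ± 0.139% without at 1 h, and at 24 h 2.44 ± 0.342% with FGF23 and 1.81 ± 0.384% without, with overlapping ranges.

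The sum of the small MAF levels over the sum of the BACH levels was 3.87, 2.34 and 2.50 in the treated Kl libraries at 1 h, a mean of 2.90, and 1.88 ± 0.107 in their controls. These ranges did not overlap (exact permutation p = 0.1, adjusted 0.215). In WT cells at 1 h the ratio was 2.43 ± 0.234 with FGF23 and 2.26 ± 0.0646 without, with overlapping ranges. Treated WT libraries ran from 2.27 to 2.70, and treated Kl replicates 2 and 3 lay within that range. In Kl cells at 24 h the ratio was 2.28 ± 0.232 with FGF23 and 2.21 ± 0.207 without, and the ranges overlapped (exact permutation p = 0.7, adjusted 0.817). At 24 h the BACH sum was higher too, at 12.4 ± 0.473 CPM per kb with FGF23 and 10.5 ± 0.591 CPM per kb without (exact permutation p = 0.1, adjusted 0.215). In WT cells at 24 h the ratio was 2.39 ± 0.0330 with FGF23 and 2.15 ± 0.0309 without, with ranges that did not overlap (exact permutation p = 0.1, adjusted 0.215). These are transcript levels, and protein was not measured.

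**Figure D3:**
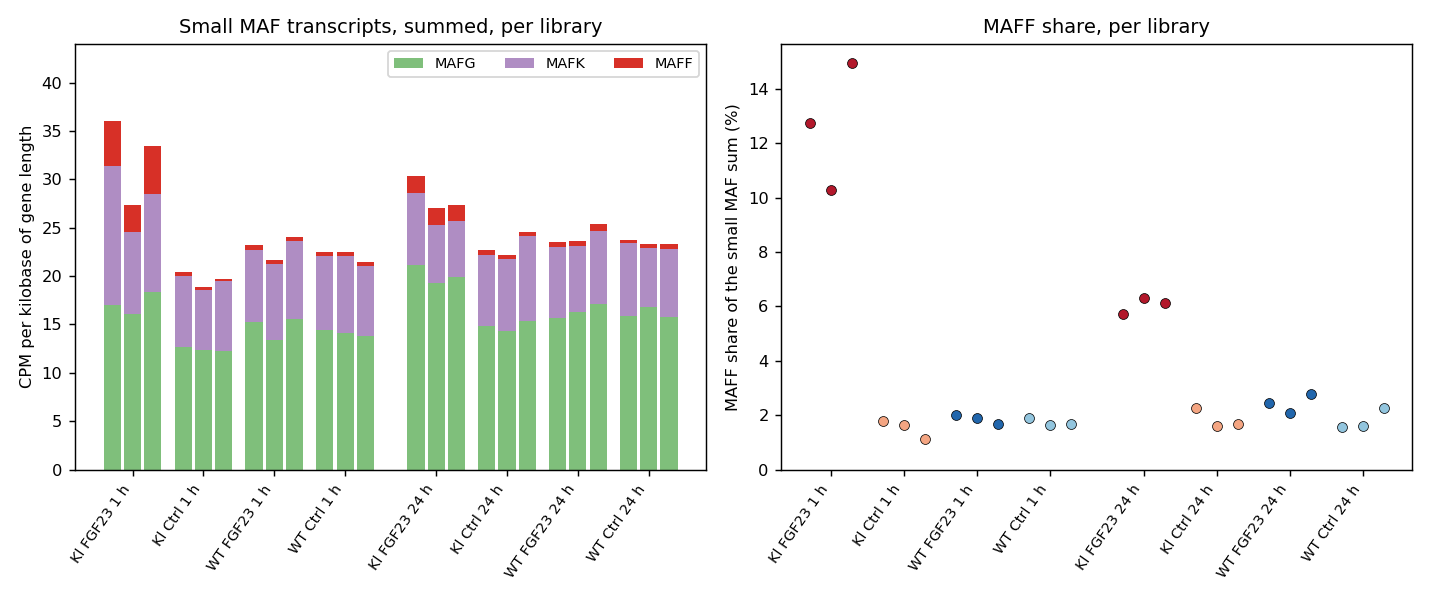
Left, summed level of MAFG, MAFK and MAFF in CPM per kilobase of gene length for each library, stacked by gene, with 3 bars for the 3 libraries of each group. Right, the MAFF share of that sum in percent for each library. The share lies at 10.3 to 14.96% in Kl cells after FGF23 for 1 h and at 5.74 to 6.33% after 24 h, and the other groups stay at or below 2.78%.

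Among the other genes of the pathway, 10 partners, relatives and degraders are given here and 9 were tested, NFE2 having at most 7 counts in a library. In Kl cells at 1 h 1 of the 9 was called higher and none lower, where 3.9% of all genes were called higher and 4.83% in either direction (median 0.12, against -0.01 for all genes). That gene was MAFA, a large MAF gene whose protein carries the activation domain that small MAF proteins lack. MAFA was scarce, at 3.15, 3.57 and 4.17 CPM with FGF23 and 1.18, 0.949 and 1.52 CPM in Kl controls. Its log2 fold change was 1.58 (SE 0.28, edgeR adjusted p = 4.33e-04), and DESeq2 gave it no adjusted p. With the 6 libraries alone (adjusted p = 0.0118) and with voom (0.0231) MAFA was called. Its difference between lines, 1.47, was not called (adjusted p = 0.0780) but was with DESeq2 (adjusted p = 0.0356), with no filter (0.00746), with the replicate number as a block (0.0357), and without WT control replicate 3 (0.0412) or treated Kl replicate 1 (0.0306) or 2 (0.0446).

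At 24 h in Kl cells 1 of the 9 was called, NFE2L2, which encodes NRF2, the activating partner of the small MAF proteins, where 8.57% of all genes were called. A share of 1 in 9 is near that background. NFE2L2 had 94.5, 112 and 105 CPM with FGF23 and 83.5, 81.9 and 76.3 CPM in Kl controls. The log2 fold change was 0.37 (SE 0.08, edgeR adjusted p = 0.00322), and the difference from WT, 0.32, was not called (adjusted p = 0.129) except with the libraries of that comparison alone (0.00176) and with voom (0.00497). MAFA was not called at 24 h, with a log2 fold change of 0.078 (edgeR adjusted p = 0.922). KEAP1, which directs NRF2 to degradation, was not called at 1 h (0.14, adjusted p = 0.334) or 24 h (0.13, adjusted p = 0.352).

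The 19 genes given here as bound by small MAF with NRF2 or BACH1 were all tested. In Kl cells at 1 h 1 was called higher and none lower (median 0.022, all genes -0.010), near the 4.83% called among all genes. That gene was FTH1, the ferritin heavy chain that stores iron, with a log2 fold change of 0.22 (SE 0.06, edgeR adjusted p = 0.0273). Its call was lost with library size scaling (adjusted p = 0.117), with the 6 libraries alone (0.609), with voom (0.352), and without control replicate 1 (0.0672) or 3 (0.116). At 24 h 2 were called higher and 1 lower (median 0.045, all genes -0.0037), where 8.57% of all genes were called. SLC7A11, the cystine transporter that feeds glutathione synthesis, had 74.0, 74.4 and 74.3 CPM with FGF23 and 16.9, 16.3 and 14.0 CPM in Kl controls, a log2 fold change of 2.24 (SE 0.12, edgeR adjusted p = 4.17e-14). In WT cells at 24 h SLC7A11 stood at 48.0 ± 1.37 CPM with FGF23 and 51.4 ± 2.76 CPM without, so that untreated Kl cells had the lowest level of the 4 groups. At 1 h SLC7A11 stood at 19.7 ± 3.36 CPM in WT controls and 13.8 ± 3.08 CPM in Kl controls (log2 difference -0.50, edgeR adjusted p = 0.00685). That call was lost in 2 of 6 fits without 1 library. Controls of the 2 times were not tested against each other. FTH1 had a log2 fold change of 0.30 at 24 h (SE 0.06, edgeR adjusted p = 9.98e-04).

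SLC40A1, the iron exporter ferroportin, fell at 24 h with 21.1, 19.5 and 16.6 CPM in treated and 24.7, 23.3 and 26.1 CPM in control Kl cells (log2 fold change -0.38, SE 0.09, edgeR adjusted p = 0.00517). Without treated replicate 3 the call was lost (-0.28, adjusted p = 0.0753). HMOX1, the best known BACH1 target, had 8.12, 6.24 and 6.54 CPM with FGF23 at 1 h and 7.34, 5.92 and 7.15 CPM in Kl controls, and it was not called at 1 h (0.019, adjusted p = 0.965) or 24 h (0.045, adjusted p = 0.915). The sign of both HMOX1 values turned with voom (-0.0014 and -0.0057). NQO1, an NRF2 target, was not called either (0.033, adjusted p = 0.943 at 1 h and 0.27, adjusted p = 0.452 at 24 h). In WT cells none of the 9 partners or 19 targets was called at either time by edgeR, DESeq2 or voom, and 1 target had an unadjusted p under 0.05, at 1 h.

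Untreated Kl and WT cells differed in several of these genes. At 24 h SLC7A11 stood at 15.7 ± 1.52 CPM in Kl controls and 51.4 ± 2.76 CPM in WT controls (log2 difference -1.71, edgeR adjusted p = 2.69e-11). HMOX1 stood at 6.53 ± 1.23 CPM in Kl controls and 11.5 ± 0.558 CPM in WT controls (-0.81, edgeR adjusted p = 2.80e-04). Of the 9 partners 3 were higher and none lower in Kl controls at each time, and at 1 h 1 was called without WT control replicate 1 or 2 or Kl control replicate 1. Of the 19 targets 3 were higher and 4 lower at 1 h, and 4 higher and 3 lower at 24 h. At 1 h 3 targets were called without WT control replicate 3. These counts stand beside 16.0% of all genes called between the untreated lines at 1 h and 23.5% at 24 h.

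**Figure D4:**
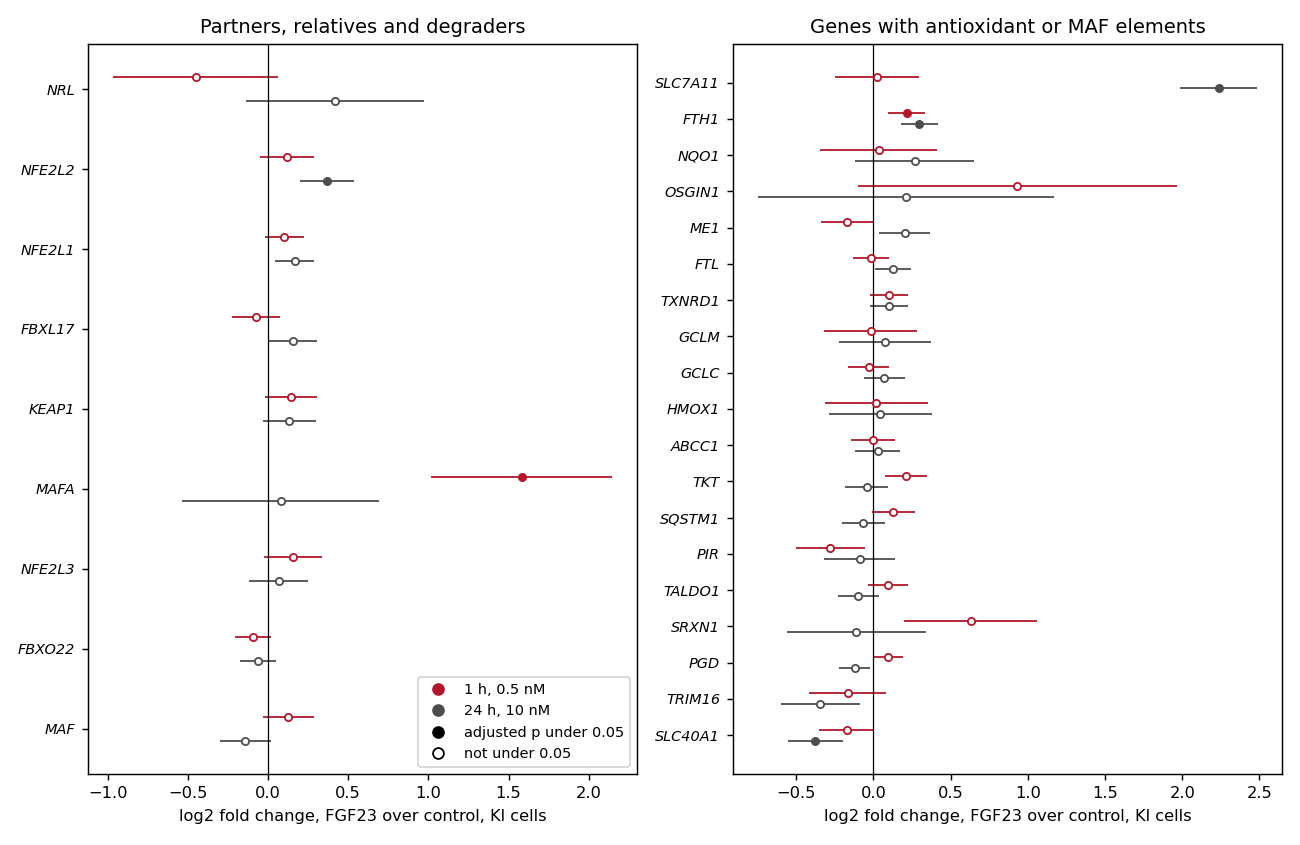
Log2 fold change of FGF23 over control in Kl cells, with 95% intervals from edgeR, at 1 h (0.5 nM) and 24 h (10 nM). Left, 9 partners, relatives and degraders. Right, the 19 genes listed as targets of small MAF dimers, whose binding was not measured here. Filled points have an adjusted p under 0.05. MAFA is filled at 1 h alone, NFE2L2 at 24 h alone, and SLC7A11 stands at 2.24 at 24 h.

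The genes with patterns closest to each member were found by Pearson correlation of log2 CPM over the 8 group means, among 14995 genes with a mean of at least 1 CPM. These r values describe 8 points that share libraries and scaling. For MAFF they were EGR1 (r = 0.988), IER2 (0.988), MCL1 (0.985), RAB11B (0.978) and NAB2 (0.977). Over the 24 libraries EGR1, MCL1 and IER2 still ranked 1, 2 and 4 (r = 0.974, 0.959 and 0.936), while RAB11B dropped to rank 248 (r = 0.671) and NAB2 to rank 53 (0.817). For MAFG they were KLF13 (0.979), UBALD2 (0.978) and SHISA8 (0.978). UBALD2 and SHISA8 ranked 1 and 2 over 24 libraries, while KLF13 dropped to rank 67 (r = 0.793). MAFK was closest to UBE2D2 (0.975), NDUFB7 (0.972) and RPL8 (0.967), which ranked 13, 3 and 9 over 24 libraries. BACH1 was closest to ONECUT3 (0.959), KBTBD2 (0.951) and SLC20A1 (0.940). Over 24 libraries these had r of 0.354, 0.768 and 0.673 and ranked 2658, 32 and 172. BACH2 was closest to PDE8A (0.994), VPS37A (0.994) and PTPRJ (0.980). Their r over 24 libraries was 0.766, 0.620 and 0.809, at ranks 168, 846 and 70. Among the members the highest r over 8 group means was 0.763, between MAFF and BACH1, and the lowest was -0.468, between MAFK and BACH2.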

How the data were processed

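Total RNA of 24 human cell line libraries was sequenced. The authors deposited 4 tables of raw read counts per gene with FPKM beside them, and for each comparison a log2 fold change with p-values, per the file headers. The submitters' processing notes name the build mm10, while the deposited coordinates are human (34299 of 34305 genes start and end where GENCODE 29 on GRCh38 has them). The aligner, the strand setting of the counting and the authors' test are not given in the sources used here. The 4 tables were joined by gene identifier, and a gene absent from a table (25355 genes are in all of them) was taken as 0, such genes having at most 30 counts elsewhere. No per-sample column was left unmapped (0).

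Counts were fitted with edgeR 4.0.16 (quasi-likelihood test, robust, TMM scaling, genes kept by filterByExpr, 17790 tested, 16 residual degrees of freedom) over 24 libraries in 8 groups, in R 4.3.3. P-values were adjusted by Benjamini-Hochberg over all genes in each comparison, and called means an adjusted p under 0.05. Comparisons were FGF23 against control in each line and time, the differences of these effects between lines and between times in Kl cells, and Kl against WT controls. Alternatives were DESeq2 1.42.0 and its size factors (RLE), library size scaling, no filter, a filter of 1 CPM in 3 libraries, the libraries of a comparison alone, limma 3.58.1 voom with a spread for each group, a replicate block, and leaving out each library. Scripts were tested on simulated data. Sums and shares over members were tested with two-sided exact permutation tests (scipy 1.17.1). Total counts set the precision, at 15849564 to 30446989 per library.

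The members, the partner and target lists and the markers were chosen with earlier results of these data known. List genes were named where they passed in an FGF23 comparison in Kl cells, with HMOX1, NQO1, NFE2L2 and KEAP1 always named. The genes most alike to a member were named by Pearson r of log2 CPM over group means, 5 for MAFF and 3 for each other member. Before the logarithm 0.5 counts, scaled to CPM by the total count of each library, were added. Results for 1 gene of the partner list and 1 of the target list are not reported here, and both lists are counted without them.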

Additional observations from a re-analysis of the deposited data

Results flagged for a closer look

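Of the 5 members and the listed genes, these had FGF23 effects that differed between the lines or the times by edgeR's test of the difference, each on the log2 scale. Kl minus WT at 1 h the effect differed by 3.66 for MAFF (SE 0.32, adjusted p = 3.04e-09) and 0.40 for MAFG (SE 0.09, adjusted p = 0.0225). At 24 h it differed by 1.50 for MAFF, 0.42 for MAFG and 0.51 for BACH2. Among the targets at 24 h it differed by 2.33 for SLC7A11 (SE 0.17, adjusted p = 4.77e-11) and 0.32 for FTH1 (SE 0.08, adjusted p = 0.0256). The FTH1 call was lost in 6 of 12 fits without 1 library, those without WT control replicate 1, treated WT replicate 1 or 2, Kl control replicate 2 or 3, or treated Kl replicate 1 (adjusted p up to 0.0710). BACH2 was the member whose 24 h libraries with FGF23 lay wholly above the controls in Kl cells and wholly below them in WT cells, and BACH1 had the same order without a called difference.

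Within Kl cells, 24 h minus 1 h, the effect differed by -1.80 for MAFF and -0.95 for MAFK, and by -1.50 for MAFA (SE 0.41, adjusted p = 0.0279). The targets SLC7A11 (2.22, SE 0.18, adjusted p = 1.34e-09) and ME1 (0.38, SE 0.11, adjusted p = 0.0480) had larger effects at 24 h. The MAFA call was lost with the libraries of Kl cells alone (adjusted p = 0.0968), with voom (0.0813), and in 5 of 12 fits without 1 library (Kl control replicates 1 and 2 at 1 h, control replicate 1 and treated replicates 2 and 3 at 24 h, adjusted p up to 0.151). The ME1 call was lost with those libraries alone (0.203), with voom (0.116) and in 9 of 12 fits without 1 library (all 24 h libraries, and at 1 h control replicates 1 and 2 and treated replicate 1, adjusted p up to 0.178). Dose differed with time in these comparisons, so the part of each was not tested.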

How the results depend on the processing

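Of 45 member values (5 genes in 9 comparisons), RLE size factors kept the direction and call of 45, no filter, the stricter filter and the replicate block of 44 each, DESeq2 of 42, library size scaling and voom of 39 each, and the libraries of a comparison alone of 35. Leaving out 1 library kept 334 of 360. MAFF kept its calls in all of these.

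For FGF23 in Kl cells at 1 h, 859 genes were called, against 1332 with no filter, 90 with the libraries of the comparison alone and 229 with voom, and 403 to 2636 without 1 library (403 without control replicate 2, 2636 without treated replicate 2). At 24 h, 1524 became 3128 with the libraries alone and 3177 with voom, and 829 to 1504 without 1 library (829 without control replicate 3, 841 and 857 without treated replicates 2 and 3). In WT cells the 0 calls became 12 at 1 h and 7 at 24 h with no filter, and at 24 h 111 with the libraries alone and 2 with voom. For Kl minus WT at 1 h, 131 became 369 with no filter, 207 with DESeq2, 60 with the libraries alone and 220 with the replicate block, and 89 to 530 without 1 library (236 and 530 without treated Kl replicates 1 and 2). At 24 h, 673 became 2515 with the libraries alone and 2290 with voom, and 381 to 724 without 1 library (381 to 441 without any WT control replicate, treated WT replicate 1 or 3, Kl control replicate 3, or treated Kl replicate 2 or 3). For 24 h minus 1 h, 1039 became 246 with the libraries alone and 637 with voom, and 529 to 2672 without 1 library (1791 and 2672 without treated replicates 3 and 2 at 1 h, 542 without control replicate 2 at 1 h, and at 24 h 641 and 554 without control replicates 1 and 3 and 529 and 543 without treated replicates 2 and 3). For the controls at 24 h, 4183 became 6757 with the libraries alone and 6573 with voom.

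The target genes called in Kl cells, 1 at 1 h and 3 at 24 h, were 0 at 1 h with library size scaling, the libraries alone and voom, 3 with no filter and with DESeq2, 2 with the replicate block, and 0 to 4 without 1 library (0 without control replicate 1, 4 without treated replicate 2), and were 7 at 24 h with the libraries alone and with voom. Members called fell to 1 in Kl cells at 1 h with the libraries alone, and were 5 at 24 h and 5 in Kl minus WT at 24 h, each with the libraries alone and with voom. In Kl minus WT at 1 h 1 member was left with library size scaling, the libraries alone and voom, and 1 to 3 without 1 library. Of the untreated lines 1 was called at 1 h (MAFG) with library size scaling, the stricter filter, DESeq2, the libraries alone and voom, and at 24 h 1 with library size scaling and 2 with the libraries alone. MAFK in Kl minus WT at 1 h was called with DESeq2 (adjusted p = 0.0499), with no filter (adjusted p = 1.57e-04) and without treated Kl replicate 2 (0.80, adjusted p = 0.00412). The share of calls that were higher, 80.7% in Kl cells at 1 h, was 56.5% with library size scaling, 96.7% with the libraries alone and 97.8% with voom. For Kl minus WT at 24 h it was 65.1%, and 53.8% with the libraries alone and 53.1% with voom. For 24 h minus 1 h it was 44.5%, and 56.3% with library size scaling and 60.6% with the libraries alone.

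Values that changed sign were all uncalled. With library size scaling these were BACH2 (-0.042), HMOX1 (-0.031) and NQO1 (-0.015) in Kl cells at 1 h, MAFG for 24 h minus 1 h (0.0040) and MAFF between controls at 24 h (-0.035), and with voom HMOX1 at 1 h (-0.0014) and 24 h (-0.0057). Without 1 library, BACH2 ran from -0.049 to 0.087, HMOX1 from -0.089 to 0.10 and NQO1 from -0.072 to 0.18 in Kl cells at 1 h, and HMOX1 from -0.18 to 0.23 at 24 h. In WT cells MAFK ran from -0.00079 to 0.062 at 1 h and from -0.013 to 0.13 at 24 h, and MAFG from -0.021 to 0.043 at 24 h. For 24 h minus 1 h MAFG ran from -0.087 to 0.010 and BACH1 from -0.12 to 0.17, and between controls at 24 h MAFF ran from -0.14 to 0.19. The cause was not tested for any of these shifts.

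Libraries share replicate numbers, but pairing is not stated in the labels. Correlations of same-numbered deviations were 0.0629 to 0.116 in Kl and 0.0486 to 0.102 in WT cells at 1 h, where 3 of 3 treated libraries matched their own number best. At 24 h they were -0.0219 to 0.0623 and -0.0168 to 0.0107, and 1 of 3 matched best in each line. Between different numbers they ran from -0.115 to 0.0349 in Kl and -0.0956 to 0.0204 in WT cells at 1 h. At 24 h those were -0.0595 to 0.0604 and -0.00911 to 0.0194. With the replicate block 1216 genes were called in Kl cells at 1 h, MAFK in Kl minus WT at 1 h was called (0.61, adjusted p = 0.0276), and no other member call changed.

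MAFF, at 21 to 51 counts in Kl controls, is the member whose values depth limits most.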
